A study of Mus musculus with 6 samples.

Results

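The 10 genes described here encode proteins of the tight junction and were followed in mouse villus epithelium, namely the claudins *Cldn2*, *Cldn3*, *Cldn4*, *Cldn7*, *Cldn8*, *Cldn12*, *Cldn15* and *Cldn23*, the zonula occludens scaffold *Tjp1* (ZO-1) and occludin, *Ocln*. They were taken by symbol from the raw count table, which lists 20409 features, and all 10 were found in it. Of these, 9 passed the filter on low counts, as did 13346 features in all, and *Cldn8* did not.

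The tight junction is the most apical contact between neighbouring epithelial cells. Claudins are membrane proteins that polymerise into strands that set which ions pass between cells: claudin-2 and claudin-15 form cation and water pores, whereas others, such as claudin-3, mainly seal the strand. Occludin lies within the same strands, and ZO-1 ties both to actin. In the small intestine claudin-2 is known as a protein of the crypt, while claudin-4 and claudin-23 are found mostly towards the differentiated cells.

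RNA was sequenced from the duodenal villi of 3 double mutant and 3 wild-type mice, 1 polyA-enriched library per mouse. The double mutant carried *Smad4* fl/fl, a floxed exon 3 on 1 allele of β-catenin (*Ctnnb1* exon3 fl/wt) and Villin-CreERT2, which acts in all intestinal epithelial cells once tamoxifen is given, so that SMAD4 is lost and β-catenin is stabilised. These mice received tamoxifen at 0.05 g/kg on 4 days and were examined at 7 days after induction, whereas the wild-type mice were uninjected littermates on the same C57BL6-enriched background, so that tamoxifen and the mutations cannot be told apart. The alleles of the littermates and the age of the mice are not given in the sources used here, and in each group mouse 1 was male and mice 2 and 3 were female.

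Between 19678507 and 26337318 reads per mouse were counted, and levels are given as CPM, a read count relative to the library total, scaled by edgeR's TMM factors. At this depth a count of 3, the smallest level taken as detectable, was 0.125 to 0.163 CPM, which covers counting error only. The targeted gene *Smad4* was 119.8 to 180.1 CPM in the wild-type mice and only 26.1 to 36.8 CPM in the double mutants (a log2 difference of -2.22 with an adjusted p of 0.000145), and *Ctnnb1*, whose deleted exon these gene counts cannot separate, did not pass the test (-0.15, adjusted p = 0.359). Enterocyte markers summed to 44947 to 52032 CPM in wild-type and 28243 to 31378 CPM in double mutant villi, while stromal markers stayed at or below 0.464 CPM in every mouse and muscle markers at or below 0.417 CPM except in double mutant mouse 1 (7.42 CPM). Wild-type mouse 1 stood apart: its goblet cell markers summed to 125.4 CPM and its Paneth cell markers to 5.54 CPM, against 11616 and 11039 CPM and 602 and 1015 CPM in wild-type mice 2 and 3. Its values are given wherever a result rests on them.

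The bases before the start sites of *Cldn2*, *Cldn4* and *Cldn3* are shown because these genes moved up, down and not detectably, and because *Cldn4* and *Cldn3* are neighbours on chromosome 5. Each sequence is the 250 bases upstream of the start in RefSeq's GRCm38.p6 promoter, 5′ to 3′ on the gene's strand, and each was found once in mm9, the build of the counts, at chrX:136335097-136335346 (+), chr5:135422805-135423054 (-) and chr5:135461834-135462083 (+). Capitals mark matches to the motifs searched on both strands: CTTTGAA and CTTTGAT for TCF/LEF, the partners of β-catenin, CAGAC for SMAD, TTTATNG for CDX, CCACCC for the Krüppel-like factors and TATAAA for the TATA box.
Cldn2 upstream: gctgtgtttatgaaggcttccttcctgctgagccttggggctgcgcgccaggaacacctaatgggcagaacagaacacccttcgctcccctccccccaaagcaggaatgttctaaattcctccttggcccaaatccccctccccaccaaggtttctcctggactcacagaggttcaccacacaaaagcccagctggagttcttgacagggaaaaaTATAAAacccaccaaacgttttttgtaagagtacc
Cldn4 upstream: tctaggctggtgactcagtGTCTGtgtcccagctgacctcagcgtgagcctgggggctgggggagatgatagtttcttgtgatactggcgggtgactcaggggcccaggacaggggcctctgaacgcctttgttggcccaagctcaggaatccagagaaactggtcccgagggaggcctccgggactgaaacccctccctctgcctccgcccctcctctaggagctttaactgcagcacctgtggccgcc
Cldn3 upstream: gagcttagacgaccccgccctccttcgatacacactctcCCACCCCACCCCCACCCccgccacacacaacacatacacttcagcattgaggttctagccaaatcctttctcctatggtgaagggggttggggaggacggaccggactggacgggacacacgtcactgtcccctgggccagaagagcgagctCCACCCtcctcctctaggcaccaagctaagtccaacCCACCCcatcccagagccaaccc
The *Cldn2* window held a TATA box whose first base lay at -35, a motif found in 12.4% of the 32851 promoters in the table. The *Cldn4* window held 1 SMAD match, at -231 on the opposite strand, and 42.2% of all promoters held at least one. The *Cldn3* window held 5 Krüppel-like matches, at -211, -206, -200, -59 and -23. The first 3 lie in 1 C-rich run, where the first and second share a base. Of all promoters 28.1% held at least one, and the share with 5 was not counted. G and C made up 60.8% of this window, against a median of 52.4% over all promoters. Among the 12 windows of the 8 members with an entry, the SMAD motif occurred in that of *Cldn4* and in both of *Cldn7*, and the Krüppel-like motif in windows of *Cldn3*, *Cldn7*, *Cldn15*, *Ocln* and *Tjp1*. Neither TCF/LEF motif (4.46% and 3.21% of all promoters) nor the CDX motif (9.81%) occurred in any of them. The matches are a description of these letters and not of binding.

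The tight junction genes did not move together in double mutant villi. *Cldn2* rose 15.8-fold and *Cldn12* 1.36-fold, whereas *Cldn4* fell 11.2-fold, *Cldn15* 1.82-fold, *Ocln* 1.62-fold and *Cldn7* 1.33-fold. *Cldn3*, *Cldn23* and *Tjp1* did not pass the test. Of the 9 members tested, 2 were higher and 4 were lower at an adjusted p under 0.05 (edgeR's quasi-likelihood test, Benjamini-Hochberg adjustment over all genes), against 19.7% of all genes higher and 17% lower, or 36.8% in either direction. The median log2 fold change was -0.41 over the 9 members and 0.02 over all genes tested. The groups did not overlap in 6 of the 9 members tested, which were the called ones, and in 52.4% of all genes tested, called or not. Past a log2 fold change of 2, 1 member was higher and 1 was lower, where 3.04% of all genes were higher and 2.26% were lower by that much.

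**Figure D1:**
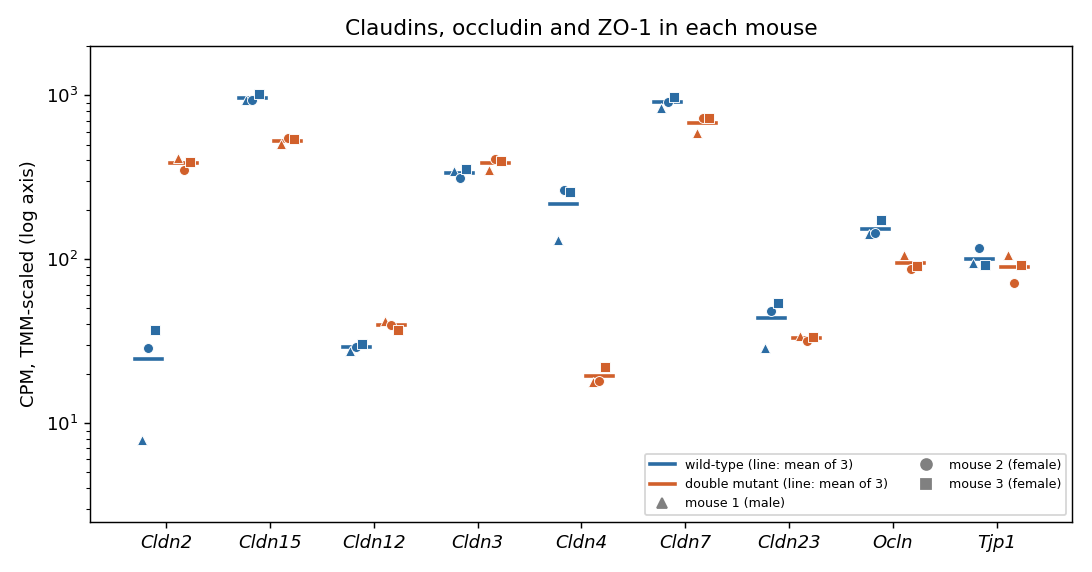
Level of each gene in each mouse, in TMM-scaled CPM on a log axis, for wild-type (blue) and double mutant (orange) villi; symbols mark the mouse and its sex and lines the mean of 3 mice. *Cldn2* and *Cldn12* are higher in all 3 double mutant mice, *Cldn15*, *Cldn4*, *Cldn7* and *Ocln* are lower in all 3, and *Cldn3*, *Cldn23* and *Tjp1* overlap; *Cldn8*, with at most 3 counts in any mouse, is not drawn.

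Among the pore-forming claudins, *Cldn2* and *Cldn15* moved in opposite directions. *Cldn2* (ENSMUSG00000047230, X:136335367-136345925, + strand, mm9) was at 7.87, 28.6 and 36.9 CPM in wild-type mice 1, 2 and 3 and at 414, 351 and 392 CPM in double mutant mice 1, 2 and 3. Every double mutant mouse lay far above every wild-type mouse, and the lowest value by a wide margin was that of wild-type mouse 1. The group means were 24.4 ± 14.9 CPM (SD, n = 3) and 386 ± 32.1 CPM, a 15.8-fold rise (log2 fold change 3.98, SE 0.59, 95% interval 2.51 to 5.46, adjusted p = 0.00497 by edgeR). Without wild-type mouse 1 the log2 fold change was 3.56 (SE 0.17, adjusted p = 1.5e-06), and over the 6 fits that each left out 1 mouse it ran from 3.56 to 4.41, always past the threshold.

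The rise of *Cldn2* stood beside a rise of crypt markers. Summed over 9 stem and crypt markers, wild-type mice 1, 2 and 3 reached 63.0, 154 and 165 CPM and double mutant mice 440, 342 and 384 CPM. In each group the 3 mice had the same order by this sum and by *Cldn2*, but not by each marker alone. Among wild-type mice *Lgr5*, *Axin2*, *Rgmb* and *Cd44* were highest in mouse 2, and the others, like *Cldn2*, in mouse 3. Of the 9 markers 5 were higher and none was lower, against 19.7% and 17% of all genes. *Olfm4*, *Ascl2*, *Axin2* and *Rgmb* were not called. The largest rise was that of *Prom1*, which encodes the stem cell surface protein prominin-1 (log2 fold change 3.11, adjusted p = 5.9e-05). *Lgr5*, the marker of crypt base stem cells, named after its values were seen, rose too (2.19, adjusted p = 0.0139) but was at 3.47 CPM or less in every mouse. *Prom1* (140 to 177 CPM) and *Olfm4* (80.2 to 133 CPM) made up most of the double mutant sums. In such bulk samples more cells of a type and more RNA per cell cannot be told apart, and the part of crypt-type cells in the rise of *Cldn2* was not tested.

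**Figure D2:**
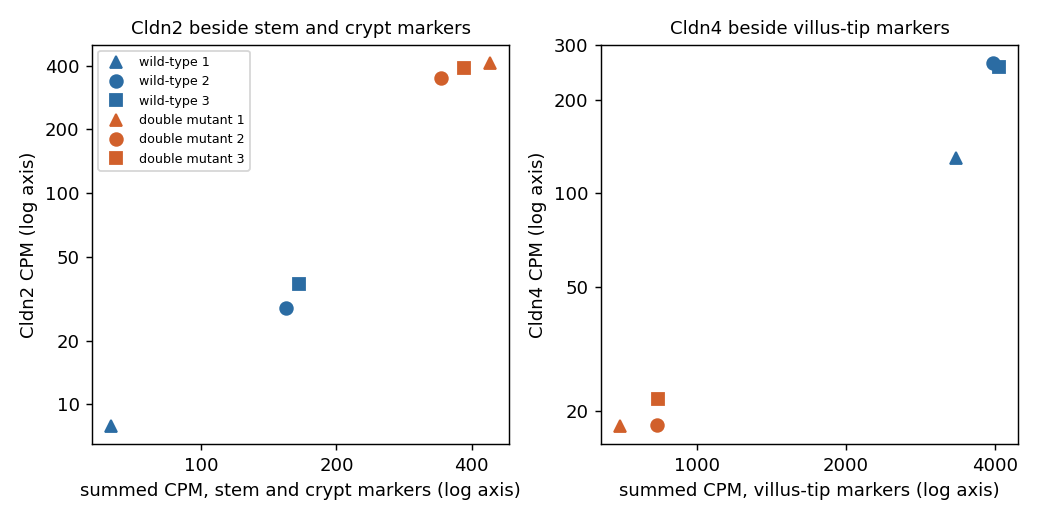
Left, *Cldn2* CPM against the summed CPM of 9 stem and crypt markers in each mouse; right, *Cldn4* CPM against the summed CPM of 5 villus-tip markers; all axes are log scales, with wild-type mice in blue and double mutant mice in orange. The double mutant mice lie at high *Cldn2* and high crypt markers (342 to 440 CPM, mostly *Prom1* and *Olfm4*). They also lie at low *Cldn4* and low villus-tip markers (701 to 836 CPM, of which *Creb3l3*, not called, is 617 to 762 CPM).

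The size of the *Cldn2* difference varied with the mice compared. It was 5.63 between the male mice, 1 per group, and 3.23 to 3.76 between females, on a log2(CPM + 0.5) scale. A fit with an interaction of genotype and sex, in which the lone males are assumed to vary like the females, gave 2.21 on the log2 scale (adjusted p = 0.00238, edgeR), and 2.64% of all genes had an adjusted p under 0.05 in it. With 1 male per group that p compares these 2 mice with the females and shows no difference between the sexes, and the wild-type male is wild-type mouse 1, the library that stood apart.

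*Cldn15* (ENSMUSG00000001739, 5:137442486-137451728, + strand), the other pore-forming claudin of the villus, was among the most abundant claudins in every mouse. It was at 932, 940 and 1013 CPM in wild-type mice and at 502, 547 and 538 CPM in double mutant mice. The highest double mutant value was well below the lowest wild-type value. The level fell 1.82-fold, from 962 ± 44.6 to 529 ± 23.8 CPM (SD, n = 3, log2 fold change -0.86, SE 0.11, edgeR adjusted p = 0.000645), and it stayed past the threshold in all 6 fits that left out 1 mouse (-0.89 to -0.82). Per kilobase of exon the ratio of *Cldn2* to *Cldn15*, which does not depend on the scaling of the libraries, was 0.00540, 0.0194 and 0.0233 in wild-type mice and 0.527, 0.410 and 0.466 in double mutant mice. The mean ratio was 29.2 times higher in double mutant villi.

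*Cldn12* (ENSMUSG00000046798, 5:5505109-5514958, - strand), a claudin linked to calcium passage, was at 27.7, 29.2 and 30.5 CPM in wild-type mice and at 42.1, 39.4 and 37.1 CPM in double mutant mice. The groups did not overlap and the rise was small, 1.36-fold (log2 fold change 0.44, SE 0.11, edgeR adjusted p = 0.0153). It was past the threshold in all 6 fits that left out 1 mouse. With the replicate number as a block it was not (edgeR adjusted p = 0.0551), though the numbers are not taken as pairs.

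*Cldn4* (ENSMUSG00000047501, 5:135420996-135422804, - strand, a gene of 1 annotated transcript), a claudin of surface epithelia, showed the largest fall of the members. It was at 130.5, 263 and 255 CPM in wild-type mice and at 17.9, 18.1 and 21.8 CPM in double mutant mice. All 3 double mutant values lay close together, and even wild-type mouse 1, the lowest of its group, was well above them. The means were 216 ± 74.4 and 19.3 ± 2.22 CPM (SD, n = 3), an 11.2-fold fall (log2 fold change -3.49, SE 0.28, 95% interval -4.14 to -2.83, edgeR adjusted p = 0.000209). Leaving out each mouse in turn gave -3.75 to -3.33, with -3.75 without wild-type mouse 1.

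The fall of *Cldn4* stood beside a fall of villus-tip markers, which summed to 3348 to 4085 CPM in wild-type and 701 to 836 CPM in double mutant villi. Double mutant mice had the same order by this sum and by *Cldn4*. Wild-type mice did not, with *Cldn4* highest in mouse 2 and the sum highest in mouse 3. Of these 5 markers 4 were lower, the largest fall being that of *Nt5e*, the ecto-5′-nucleotidase of villus-tip enterocytes (log2 fold change -6.29, adjusted p = 7.1e-06), and *Creb3l3* did not pass the test. *Creb3l3* was at 617, 762 and 709 CPM in double mutant mice 1, 2 and 3 and so made up most of their sums. The enterocyte list had 7 lower genes and 1 higher gene, *Fabp1*, among its 10, where 17% of all genes were lower and 19.7% were higher. The part of fewer or less mature villus-tip cells in the fall of *Cldn4* was not tested.

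*Cldn3* (ENSMUSG00000070473, 5:135462084-135463342, + strand), a sealing claudin, lies 39.3 kb from *Cldn4* on the opposite strand. It was at 345, 313 and 354 CPM in wild-type mice and at 349, 408 and 397 CPM in double mutant mice. The groups overlapped, and the difference did not pass the test (log2 fold change 0.19, SE 0.11, 95% interval -0.07 to 0.44, edgeR adjusted p = 0.22). With library totals alone in place of TMM factors, which moves the median of all genes by 0.19 on the log2 scale, it was 0.38 (adjusted p = 0.0258). The ratio of *Cldn4* to *Cldn3* per kilobase was 0.263, 0.585 and 0.502 in wild-type mice and 0.0357, 0.0309 and 0.0382 in double mutant mice. Every double mutant ratio lay below every wild-type ratio, and the scaling of the libraries does not enter it. Within 100 kb of the pair, 12 features are in the table and 10 were tested: *Cldn4* was the 1 lower gene, and *Stx1a* (log2 fold change 1.33, adjusted p = 0.0349) and *Abhd11* (0.85, adjusted p = 0.00275), named after their values were seen, were the 2 higher ones. The last 40 bases of *Cldn3* overlap the antisense gene *Wbscr25*, which had at most 0.617 CPM, and one end of *Abhd11* overlaps another antisense gene. Reads in these overlaps cannot be told apart, since the strand setting of the counting is not given in the sources used here.

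*Cldn7* (ENSMUSG00000018569, 11:69778281-69781387, + strand), a claudin found also along the basolateral membrane and bound by EpCAM, was at 833, 908 and 973 CPM in wild-type mice and at 585, 723 and 731 CPM in double mutant mice. The groups did not overlap, and the lowest level was in double mutant mouse 1. The fall was 1.33-fold (log2 fold change -0.41, SE 0.13, edgeR adjusted p = 0.0356). It was near the threshold: leaving out 1 mouse ended the call in 5 of 6 fits, all but the one without wild-type mouse 1 (-0.46 to -0.31, adjusted p 0.0652 to 0.106), and with library totals alone (-0.22, adjusted p = 0.21).

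*Cldn23* (ENSMUSG00000055976, 8:36887766-36889613, - strand), a claudin of differentiated surface cells, was at 28.7, 48.0 and 54.1 CPM in wild-type mice and at 34.0, 31.5 and 33.3 CPM in double mutant mice. Wild-type mouse 1 was the lowest of the 6, so the groups overlapped. The difference did not pass the test over all mice (log2 fold change -0.41, SE 0.21, 95% interval -0.90 to 0.09, edgeR adjusted p = 0.175). Without wild-type mouse 1 it was -0.63 (SE 0.13, adjusted p = 0.00417).

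*Cldn8* (ENSMUSG00000050520, 16:88561073-88563428, - strand), a claudin known mainly from the colon and kidney, had 0 counts in each wild-type mouse and 2, 0 and 3 counts in double mutant mice 1, 2 and 3. All values were at or under the floor of 3 counts, so no fold change is given.

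Occludin and ZO-1 behaved differently from each other. *Ocln* (ENSMUSG00000021638, 13:101266462-101322673, - strand) was at 142, 144 and 174 CPM in wild-type mice and at 106, 86.6 and 91.3 CPM in double mutant mice. The groups did not overlap, and the level fell 1.62-fold (log2 fold change -0.69, SE 0.13, edgeR adjusted p = 0.00408), past the threshold in all 6 fits that left out 1 mouse (-0.77 to -0.60). *Tjp1* (ENSMUSG00000030516, 7:72441051-72516125, - strand) was at 94.8, 116 and 91.7 CPM in wild-type mice and at 105.5, 71.4 and 91.6 CPM in double mutant mice. Its groups overlapped widely and the difference did not pass the test (log2 fold change -0.17, SE 0.16, 95% interval -0.54 to 0.20, edgeR adjusted p = 0.437), with the sign turning under library totals alone (0.02).

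**Figure D3:**
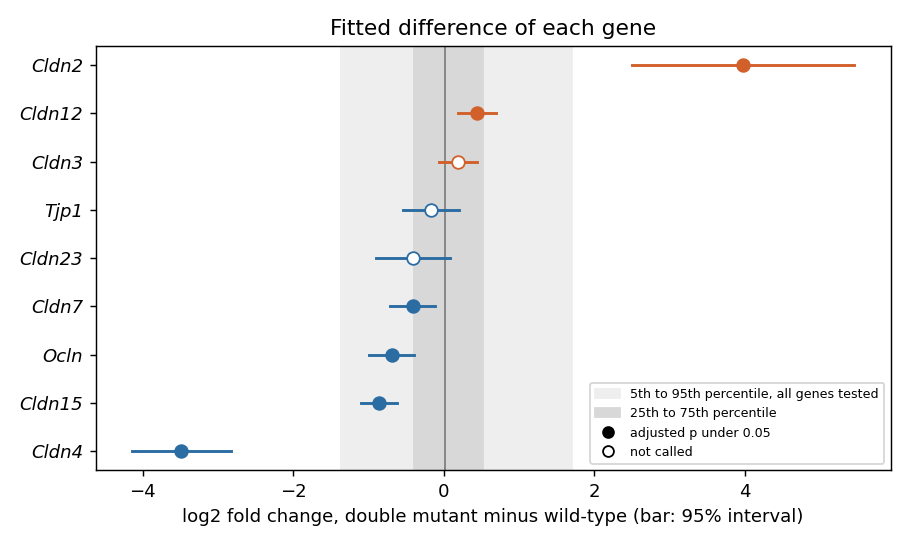
Fitted log2 fold change, double mutant minus wild-type, with its 95% interval for the 9 genes tested; filled points have an adjusted p under 0.05, and the grey bands run from the 5th to the 95th and from the 25th to the 75th percentile of all genes tested. *Cldn2* (3.98) and *Cldn4* (-3.49) lie outside the wider band, which runs from -1.36 to 1.71, and the other 7 lie within it.

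The make-up of the claudin mRNA pool was described per kilobase of exon, the scale on which levels of different genes can be compared. Of the 16 genes the mm9 annotation names as claudins in the table, *Cldn7* (33.0 ± 0.41%, SD, n = 3), *Cldn15* (32.2 ± 1.00%) and *Cldn3* (19.1 ± 1.61%) made up most of the pool in wild-type villi, followed by *Cldn4* (8.41 ± 2.58%). *Cldn7* and *Cldn15* did not differ beyond their spread. In double mutant villi the order was *Cldn7* (31.8 ± 1.95%), *Cldn3* (27.9 ± 0.77%), *Cldn15* (22.8 ± 0.52%) and *Cldn2* (10.7 ± 1.46%). *Cldn2* had been 0.510 ± 0.293% of the wild-type pool, while *Cldn4* was 0.973 ± 0.0857% of the double mutant pool. *Cldn23* was 1.66 ± 0.418% and 1.63 ± 0.155%, and *Cldn12* was 0.508 ± 0.00911% and 0.891 ± 0.113%, in wild-type and double mutant villi. The summed level of all annotated claudins was 1316, 1405 and 1502 CPM per kilobase in wild-type mice and 1016, 1126 and 1139 in double mutant mice, a ratio of the means of 0.777. Between the group means, *Cldn2* gained 109 CPM per kilobase, whereas *Cldn4* fell by 109, *Cldn15* fell by 204 and *Cldn7* fell by 115 CPM per kilobase.

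**Figure D4:**
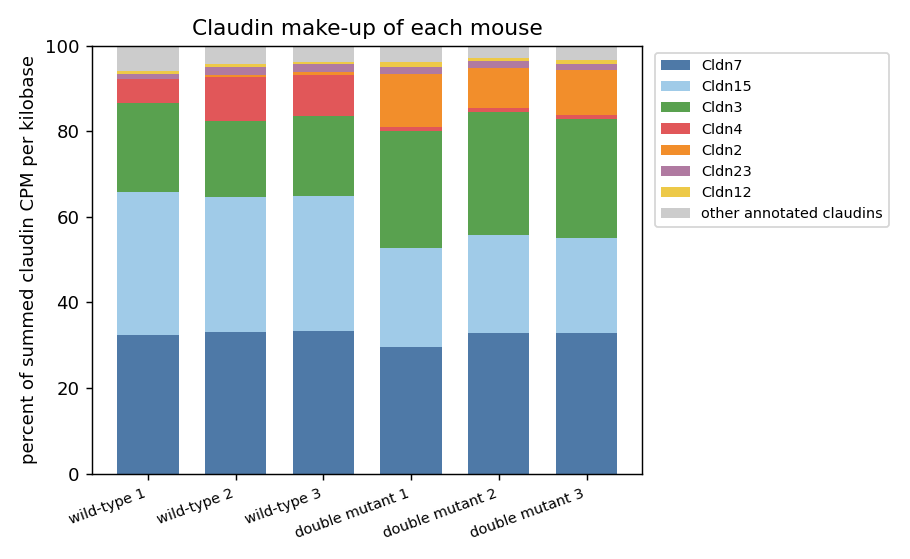
Share of each claudin in the summed claudin level (TMM-scaled CPM per kilobase of exon) of each mouse, stacked to 100%. *Cldn4* (5.48 to 10.3%) narrows from the wild-type bars to 0.888 to 1.06% in the double mutant bars, where *Cldn2* takes 9.37 to 12.3%.

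Of the other claudins, *Cldn1*, *Cldn6*, *Cldn14* and *Cldn18* had at most 3 counts in any mouse, *Cldn9* at most 4, *Cldn20* at most 17 and the gene annotated as *Cldn27*, which RefSeq lists as *Tmem235*, at most 19, and none of them passed the filter. The gene the mm9 annotation lists as *Cldn25* (ENSMUSG00000022744, 16:58728023-58734364), which RefSeq lists as *Cldnd1*, a claudin-domain gene, was at 199, 154 and 140 CPM in wild-type mice and at 98.6, 78.2 and 93.6 CPM in double mutant mice. Its groups did not overlap (log2 fold change -0.87, SE 0.16, edgeR adjusted p = 0.00358).

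Counting 7 of these claudins, 73 other tight junction genes were in the table in 5 lists, and 57 were tested, *Cldn25* among them. Of these 5 were higher, 21 were lower and 31 were not called, with a median log2 fold change of -0.21. Over all genes 19.7% were higher, 17% were lower and the median was 0.02. Without wild-type mouse 2, double mutant mouse 2 or double mutant mouse 3 the 26 calls dropped to 13, 15 and 15, while calls over all genes dropped from 4905 to 3746, 3442 and 3626. With library totals alone 17 of the 57 were called.

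Among the transmembrane partners, 3 of 9 tested genes were lower and none was higher. *F11r*, the junctional adhesion molecule JAM-A and the most abundant of the list, fell from 243 ± 18.7 to 187 ± 15.2 CPM (SD, n = 3, log2 fold change -0.37, edgeR adjusted p = 0.0308). The largest fall was that of *Ildr1*, the tricellular junction protein angulin-2 (-1.05, adjusted p = 0.0494), which was at 3.89 CPM or less in every mouse.

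Among the scaffold and polarity genes, 2 of 19 were higher and 7 were lower. *Ybx3*, the Y-box factor ZONAB that binds ZO-1, rose from 21.3 to 25.2 CPM in wild-type mice to 41.7 to 68.8 CPM in double mutant mice (log2 fold change 1.21, SE 0.18, adjusted p = 0.00166). *Prkcz*, the atypical protein kinase C zeta of the apical polarity complex, fell from 100.9 to 124 CPM to 54.4 to 68.0 CPM (-0.95, SE 0.13, adjusted p = 0.00115). *Tjp3* (ZO-3), the most abundant of the list per kilobase, did not pass the test (0.27, 95% interval -0.03 to 0.58).

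Among the genes for claudin stability and cleavage, 2 of 9 were higher and 2 were lower. *Epcam*, which binds and stabilises claudin-7 and was the most abundant of the list, was at 1696, 1709 and 1940 CPM in wild-type mice and at 1761, 1897 and 1813 CPM in double mutant mice, and did not pass the test (log2 fold change 0.03, 95% interval -0.23 to 0.29). *Spint1*, the inhibitor HAI-1 of the protease matriptase, fell from 569 ± 2.40 to 379 ± 30.6 CPM (-0.59, adjusted p = 0.00365). *Trip6*, a LIM-domain adaptor of cell contacts, had the largest rise (1.75, adjusted p = 0.00721) from a low level of 0.583 to 1.11 CPM.

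The perijunctional actomyosin genes had 1 higher and 8 lower members among 19 tested. *Actn1*, encoding α-actinin-1, was at 5.87, 18.3 and 17.2 CPM in wild-type mice and at 58.8, 68.5 and 62.6 CPM in double mutant mice (log2 fold change 2.20, SE 0.40, edgeR adjusted p = 0.00632), with the lowest value again in wild-type mouse 1. *Actn4*, encoding α-actinin-4, the most abundant of the list per kilobase over all 6 mice, fell from 1371 ± 86.0 to 938 ± 10.5 CPM (-0.55, adjusted p = 0.00517). *Arhgef2*, the RhoA activator GEF-H1 that cingulin holds at junctions, fell from 162 ± 4.34 to 77.6 ± 5.95 CPM (-1.06, SE 0.11, adjusted p = 0.000276), the largest fall of the list.

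Among 16 epithelial transcription factors tested, 2 were higher and 6 were lower, where 19.7% of all genes were higher and 17% were lower. *Klf4*, a Krüppel-like factor of differentiated epithelium, was at 593, 582 and 616 CPM in wild-type mice and at 90.2, 103 and 117 CPM in double mutant mice (log2 fold change -2.53, SE 0.13, edgeR adjusted p = 1.6e-05). *Grhl2*, a grainyhead factor that activates junction genes, had the largest rise, from 7.29 ± 1.39 to 12.0 ± 0.832 CPM (0.72, adjusted p = 0.019), though an antisense gene overlaps it. Among the markers of other cell types, 6 of 6 tuft cell and 7 of 8 enteroendocrine genes were lower, against 17% of all genes.

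**Figure D5:**
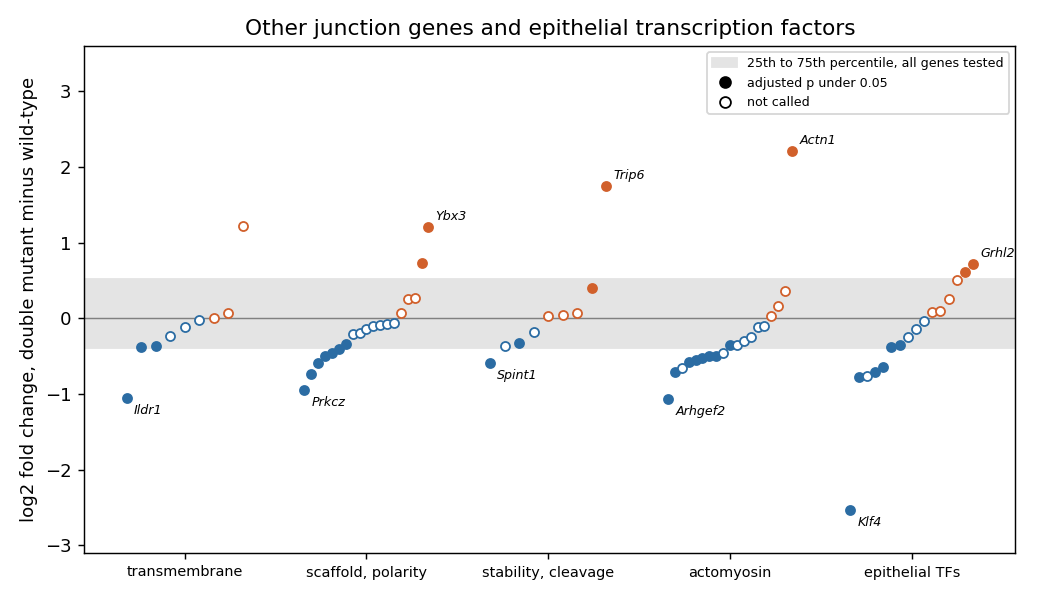
Fitted log2 fold change, double mutant minus wild-type, of each tested gene in 4 lists of tight junction genes and a list of epithelial transcription factors, sorted within each list; filled points have an adjusted p under 0.05 and the grey band runs from the 25th to the 75th percentile of all genes tested. *Actn1* (2.20) is the highest and *Klf4* (-2.53) the lowest, and *Arhgef2* (-1.06) is the lowest called point of the tight junction lists.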

How the data were processed

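HISAT2 alignment to mm9 and gene-level counting by featureCounts were done by the sequencing provider, and the authors deposited a single table of raw counts. It holds each mouse in its own column, neither normalized nor pooled. The strand setting and the handling of reads that match several genes are not given in the sources used here, and the table's gene counts cannot separate isoforms. The depth was 19678507 to 26337318 counts per mouse. Symbols, positions and exon lengths came from the GENCODE annotation of mm9, which held 20032 of the 20073 Ensembl identifiers. The 336 other features are numbered and lie outside the annotation. They entered library sizes and the fit.

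Groups came from the sample labels. The counts were filtered by group with filterByExpr, scaled by TMM and compared between 3 double mutant and 3 wild-type mice with edgeR 4.0.16 (glmQLFit, robust, and glmQLFTest; R 4.3.3), with no covariate and with Benjamini-Hochberg adjustment over the 13346 genes kept. The SE was obtained from each fold change and its F statistic, and 95% intervals follow from it. Adjusted p under 0.05 and a log2 fold change of 2 are the thresholds of the study's methods. The filter also keeps a gene that is counted in only 1 of the groups. The code was tested on simulated counts first.

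The members, the gene lists, the marker panels and the motifs were chosen with earlier results of these data known. Named are every member, other claudins past the filter, the largest rise and largest fall past the threshold and the highest level per kilobase of each other tight junction list, the largest rise and fall among transcription factors and markers, and the targeted genes. Other genes are named as chosen after their values were seen, or stand beside a count, an order or a panel as its exception or main part. Panels not described in the text, for endothelium, pancreas, red cells and leukocytes, are in the closing section.

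Alternatives were RLE factors, library totals alone, no filter, a filter of 1 CPM in 3 mice, DESeq2 1.42.0, limma-voom (limma 3.58.1), a replicate block, sex as covariate and each mouse left out. The promoters are those of RefSeq for GRCm38.p6, placed in mm9 by exact match of their letters.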

Additional observations from a re-analysis of the deposited data

Results flagged for a closer look

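*Cldn2* was flagged for the interaction of genotype with sex, which was 2.21 on the log2 scale (adjusted p = 0.00238, edgeR's quasi-likelihood test with Benjamini-Hochberg adjustment), with a difference of 5.63 between the males and of 3.23 to 3.76 between females. All pairs of mice showed the same direction, higher in double mutant villi. Each group held 1 male, assumed in the fit to vary like the females, so the p does not show a difference between the sexes. The wild-type male is the library with low goblet, Paneth and crypt markers. With groups of 3 mice no single value was tested as an outlier.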

How the results depend on the processing

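The calls of *Cldn2*, *Cldn4*, *Cldn15* and *Ocln* held under all 8 other settings and in all 6 fits without 1 mouse. Of 126 values for single members, 115 kept their direction and side of the threshold. Library totals alone turned *Tjp1* to 0.023 (adjusted p = 0.926) and took calls over all genes from 2632 higher and 2273 lower to 3732 and 1425; the other tight junction genes called went from 26 to 17. Without 1 mouse these were 13 to 26, members higher were 2 in every fit, members lower were 3 to 5, and calls over all genes were 3442 to 5144. Without division by exon length, wild-type shares of the claudin sum were 33.7% for *Cldn7*, 35.9% for *Cldn15* and 12.6% for *Cldn3*, and double mutant shares were 24.5% for *Cldn15* and 17.8% for *Cldn3*, by construction. What could be detected with 3 mice a group depended on each gene's spread.

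The labels number the mice 1 to 3 in both groups. Deviations of same-numbered mice over 13346 genes correlated at 0.0224, -0.109 and 0.0123, so the numbers are not taken as pairs, and not every mouse correlated best with its own number. With the replicate number as a block, 1 member was higher instead of 2 and 4 members lower became 3 (*Cldn12* adjusted p = 0.0551, *Cldn7* adjusted p = 0.0569), and 15 other tight junction genes were called instead of 26, while calls over all genes went from 4905 to 3834.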

Other observations

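Among the panels of other cells, endothelial markers summed to 3.08 to 6.09 CPM in wild-type and 6.59 to 7.56 CPM in double mutant villi, with none of 3 tested genes called. Leukocyte markers summed to 46.2 to 94.1 CPM and 35.2 to 47.0 CPM, with 2 of 5 tested genes lower. Goblet markers summed to 4669 to 5064 CPM in double mutant villi, with 1 of 8 genes, *Clca1*, higher, and Paneth markers to 126 to 193 CPM, with none of 5 called. Markers of pancreatic acini were at 10.3 CPM or less and of red cells at 0.751 CPM or less in every mouse.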
